A study of Homo sapiens with 9 samples.

Results

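The 40 genes described here are interferon response genes, that is, genes whose transcription is known to be switched on by interferons. They were taken by symbol from a list, which was drawn up with earlier results of these data known, and all 40 were found among the 15983 genes of the count table. The table holds RNA sequencing counts from KGN cells, a line derived from a human ovarian granulosa cell tumour and labelled wild type. All cells were fasted for 12 h and then received solvent (control), insulin at 0.5 µg/ml or insulin at 1 µg/ml for 72 h, and each of the 3 groups has 3 libraries. Everything was measured in this single line, and all groups share the fast and the basal medium with serum. Whether libraries of a group stem from separate cultures is not in the labels. The p-values thus rest on the spread between these samples alone, and that spread may be technical.

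Interferons are secreted proteins that warn cells of infection. Type I and type III interferons bind their receptors and activate the kinases JAK1 and TYK2. These act on the complex ISGF3, which contains STAT2 and IRF9 and binds the interferon-stimulated response element (ISRE) in target promoters. Interferon-γ instead acts through the gamma-activated site (GAS). The proteins made in response block viral entry, degrade or bind viral RNA, tag proteins with ISG15, and feed back on the signal, and many cells keep some of these genes on at a low level without infection.

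The promoters show what the genes share in sequence. The ISRE was searched as GAAA, any 2 bases and GAAA again, and the GAS as TTCNNNGAA, on both strands, in the window from 250 bases before to 50 bases after the start of each gene in RefSeq (GRCh38.p14). A gene can have several windows, and 31 members had 38 between them. The ISRE letters stood in at least 1 window of 23 of these 31 members (74.2%), against 4.20% of the 10288 tested genes with a window. Counted by window, they stood in 27 of the 38 member windows, against 3.57% of all 35116 windows. The GAS letters stood in at least 1 window of 9 of the 31 members (29%), against 8.80% of the tested genes. Counted by window, they stood in 10 of the 38 member windows, against 7.66% of all windows. In BST2, IFI27, IFITM1 and MX1 a match to one motif overlapped a match to the other. A match describes letters and is not evidence of a bound site. IFIT2, IFITM2, USP18, TRIM22, DHX58, OAS2, OASL, MX2 and IRF7 were not searched.

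The members lie on 16 chromosomes (GENCODE 29, hg38), and several sit beside relatives. IFIT2, IFIT3, IFIT1 and IFIT5 lie on the plus strand of chromosome 10 between 89283694 and 89421001. IFITM2 (chr11:307631-315272, plus), IFITM1 (chr11:313506-315272, plus) and IFITM3 (chr11:319669-327537, minus) lie close together, and IRF7 (chr11:612553-615999, minus) is on the same chromosome. IFITM1 lies inside the annotated span of IFITM2 on the same strand, and the 351 exon bases they share are 32.5% of those of IFITM1 and 22.7% of those of IFITM2, so their counts are uncertain. OAS1, OAS3 and OAS2 lie in a row on the plus strand of chromosome 12 between 112906777 and 113011723, and MX2 and MX1 on that of chromosome 21 between 41361943 and 41459214. PARP9 and DTX3L on chromosome 3 share 217 exon bases on opposite strands. Among the others, IFI6 is at chr1:27666061-27672218 (minus), ISG15 at chr1:1001138-1014540 (plus), IFI27 at chr14:94104836-94116698 (plus), IRF1 at chr5:132481609-132490798 (minus), IRF9 at chr14:24161053-24166565 (plus), USP18 at chr22:18149899-18177397 (plus), TRIM22 at chr11:5689689-5737089 (plus), OASL at chr12:121019111-121039242 (minus), CXCL10 at chr4:76021117-76023497 (minus) and LGALS3BP at chr17:78971238-78980109 (minus).

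The stretches below carry the ISRE in members that are the most abundant, the most variable between libraries, or the furthest from the control, and the GAS in 2 of the transcription factors. They are written on the strand of the gene, with the motif letters in capitals.
IFI6, chr1:27672251-27672310, minus strand: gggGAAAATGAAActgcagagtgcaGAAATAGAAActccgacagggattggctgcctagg
ISG15, chr1:1013365-1013424, plus strand: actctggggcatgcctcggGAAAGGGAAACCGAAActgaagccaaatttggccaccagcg
IFIT1, chr10:89392495-89392554, plus strand: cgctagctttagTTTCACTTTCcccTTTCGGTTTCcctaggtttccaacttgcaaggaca
IFITM3, chr11:320861-320920, minus strand: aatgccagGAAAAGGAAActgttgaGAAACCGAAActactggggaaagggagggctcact
IFITM1, chr11:313975-314034, plus strand: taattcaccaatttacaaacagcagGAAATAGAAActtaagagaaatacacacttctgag
IFI27, chr14:94110616-94110675, plus strand: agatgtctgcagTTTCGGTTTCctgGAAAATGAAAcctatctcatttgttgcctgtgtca
LGALS3BP, chr17:78979947-78980006, minus strand: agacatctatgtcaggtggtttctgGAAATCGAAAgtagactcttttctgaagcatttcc
CXCL10, chr4:76023684-76023743, minus strand: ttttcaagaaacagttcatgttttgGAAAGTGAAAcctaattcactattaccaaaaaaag
IRF1 (GAS), chr5:132490864-132490922, minus strand: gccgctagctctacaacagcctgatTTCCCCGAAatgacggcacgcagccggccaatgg
IRF9 (GAS), chr14:24161177-24161235, plus strand: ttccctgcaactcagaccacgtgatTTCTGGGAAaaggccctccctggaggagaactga
IFI6, IFITM3, IFI27 and IFIT1 each show the ISRE letters at 2 places within 60 bases, and in ISG15 a pair of matches overlap. In IFIT1, and at the first of the places in IFI27, the letters lie on the other strand and so read TTTC, any 2 bases and TTTC.

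Library totals were close to each other, at 18965722 to 20446405 counts in control, 19508466 to 20422534 counts at 0.5 µg/ml and 19887010 to 20208576 counts at 1 µg/ml. The granulosa cell markers GATA4, NR5A1 and FOXL2 averaged 171, 61.7 and 26.2 CPM (counts scaled to the library total). Of 12 listed granulosa markers 11 passed the filter on low counts, AMHR2 (34 counts over all libraries) being the exception. The rest of these 11 ran from INHA at 0.655 CPM (118 counts over all libraries) to INHBA at 70.9 CPM. WT1, CYP11A1 and CYP19A1 were also low, at 4.56, 6.51 and 8.31 CPM. Of 12 blood and immune cell markers 7 had a row and 2 were tested, CD68 at 58.1 CPM and PTPRC at 1.79 CPM. Without CD68 the 7 summed to 1.08 to 3.45 CPM in a library. A test of all genes with edgeR's quasi-likelihood method called none of 12665 genes in any of the 3 pairwise comparisons at an adjusted p under 0.05, and DESeq2, which was run without the count filter on 15981 genes here and throughout, called none either. At an unadjusted p under 0.05 edgeR had 776 genes for 0.5 µg/ml over control, 299 for 1 µg/ml over control and 720 for 1 µg/ml over 0.5 µg/ml, and DESeq2 had 573, 173 and 487.

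Levels between genes are compared here as FPKM, which divides counts by gene length and library size. The members were well above the typical gene: their median level was 33.3 FPKM, against 6.83 FPKM over all tested genes, and 37 of 40 lay above that value. IFITM3, a membrane protein that blocks fusion of viruses in endosomes, averaged 3115 ± 132 FPKM (SD, n = 9) and ranked 9 of 15983 genes. LGALS3BP, a secreted glycoprotein that binds galectin-3, followed at 1697 ± 37.0 FPKM and rank 15. IFI27 and IFI6, small hydrophobic proteins, averaged 1548 ± 97.7 and 1469 ± 88.2 FPKM, a difference smaller than either SD. IFITM1, a plasma membrane relative of IFITM3, had 749.9 ± 38.8 FPKM. BST2, which tethers budding virus to the cell surface, had 553 ± 31.1 FPKM, and ISG15, the ubiquitin-like modifier, had 468 ± 81.0 FPKM.

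At the other end were IFIT2, an RNA-binding effector, with 5.58 ± 0.655 FPKM, the nuclease ISG20 with 1.69 ± 0.141 FPKM and the chemokine CXCL10 with 0.733 ± 0.339 FPKM. The antiviral GTPase MX1 (86.3 ± 9.17 FPKM) and OAS3 (80.7 ± 8.31 FPKM), which makes the oligoadenylates that activate RNase L, led the middle of the order. Levels of 5 members are less certain because 10% or more of the 50-base stretches of their longest coding transcript also occur in transcripts of other genes. These are IFITM1 (42.3%), IFITM2 (15.8%), IFITM3 (20.3%), USP18 (23.4%, chiefly USP41) and IRF9 (100%, through a read-through transcript). More than 20% of the exon bases of IRF1, XAF1 and IFITM3 lie under a gene on the opposite strand, and the strand setting of the counting is not given in the sources used here.

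**Figure D1:**
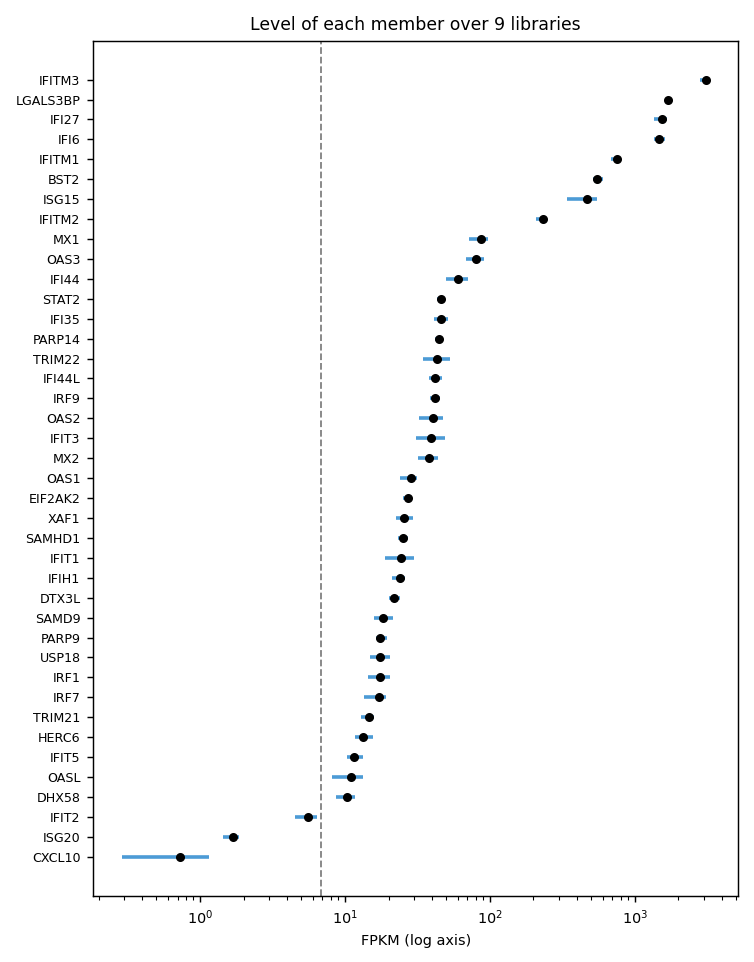
Mean level of each of the 40 members in FPKM on a log axis, with points for the mean and bars for the lowest to the highest of 9 libraries; the dashed line marks the median of all tested genes, 6.83 FPKM. IFIT2, ISG20 and CXCL10 are the members left of the line.

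Transcripts of the interferons themselves were close to the limit of detection. Of 15 listed ligand genes 5 had a row, and none passed the filter on low counts. Over all 9 libraries IFNB1 had 46 counts, IFNE 24, IFNL1 16, IFNL3 13 and IFNL2 7. Their sum was 4 to 17 counts in a library. The receptors and kinases were present: IFNAR1 had 9.15 FPKM and IFNAR2 6.89 FPKM, the interferon-γ receptor chains IFNGR1 and IFNGR2 21.4 and 35.6 FPKM, and the type III receptor chains IFNLR1 and IL10RB 0.814 and 15.8 FPKM. JAK1, JAK2 and TYK2 had 36.1, 3.24 and 14.1 FPKM, and STAT3 had 43.2 FPKM. None of the receptor and kinase genes named here, nor STAT3, reached an unadjusted p under 0.05 in any comparison.

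Of the genes that sense nucleic acids and induce interferon, 10 were tested and none was called. They include DDX58, the RNA sensor RIG-I, at 37.7 FPKM, MAVS at 11.04 FPKM, STING1 at 14.97 FPKM, TLR3 at 3.64 FPKM, TBK1 at 10.2 FPKM and IRF3 at 31.1 FPKM, with IKBKE at 4.31 FPKM, TRAF3 at 5.35 FPKM, TRIM25 at 45.3 FPKM and ADAR at 131 FPKM. The DNA sensor CGAS had 1 count in all libraries together, and ZBP1 had 8.

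At 0.5 µg/ml the members lay slightly above control, by amounts close to the spread between libraries. No member was called by edgeR's quasi-likelihood test (percent called over all genes 0%), and the smallest adjusted p of a member was 0.765. At an unadjusted p under 0.05 there were 5 of 40 members, against 6.13% of all genes. IFI6, IFITM3, CXCL10 and USP18 were higher (2.87% of all genes) and EIF2AK2 was lower (3.25% of all genes). DESeq2 also called none and put 4 members under that p. The fitted fold change was above 0 for 33 of 40 members, against 52% of all genes, and the members' median was 0.090 on the log2 scale (quartiles 0.02 and 0.13) beside 0.0043 over all genes. Leaving out control library 3 brought that median to 0.024, with 27 members above 0 and 1 at an unadjusted p under 0.05. Leaving out 0.5 µg/ml library 1 brought it to 0.13, with 38 above 0 and 15 under that p. Without 0.5 µg/ml library 2 the median was 0.038, with 26 members above 0. Without control library 1 there were 12 members under that p. All-gene counts under that p moved as well, from 776 of 12665 with all libraries. They were 420 of 12747 without control library 3, 856 of 12754 without 0.5 µg/ml library 1 and 1335 of 12771 without control library 1. In bulk RNA, a change in how many cells hold a transcript and a change in its amount per cell cannot be told apart.

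IFI6 had 1211, 1323 and 1372 CPM at 0.5 µg/ml, against 1248, 1159 and 1133 CPM in control libraries. The lowest treated library lay below the highest control library. Its log2 fold change of 0.14 ± 0.05 (SE) had an adjusted p of 0.765 in edgeR's quasi-likelihood test.

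IFITM3 had 1983, 1995 and 1950.1 CPM at 0.5 µg/ml, against 1732, 1911 and 1837 CPM in control libraries. All treated libraries lay above all control libraries, and the log2 fold change was 0.11 ± 0.05 (SE), with an adjusted p of 0.781 in edgeR. Members whose 2 groups did not overlap numbered 3 (IFITM3, USP18 and IRF7), against 10.7% of all genes. All 3 were higher at 0.5 µg/ml, against 5.1% of all genes.

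CXCL10, a chemokine that draws activated T cells, had 27, 24 and 22 counts at 0.5 µg/ml, against 24, 7 and 7 counts in control libraries. Control library 1 was as high as the treated libraries while the other two were low. The log2 fold change was 0.94 ± 0.40 (SE), the furthest from 0 of the 40, with an adjusted p of 0.791 in edgeR. Without control library 1 it was 1.82 and without control library 3 it was 0.62. The range of fold change that the data allow was narrow elsewhere: the 95% interval lay within 1.5-fold in either direction for 39 of 40 members, CXCL10 being the exception.

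By role, all 4 membrane restriction factors (IFITM1, IFITM2, IFITM3 and BST2) had a fold change above 0 with a median of 0.09 on the log2 scale. So did all 6 members of the ubiquitin and ISG15 pathway (median 0.12), 5 of 6 oligoadenylate synthetases and nucleases (median 0.09) and 3 of 4 transcription factors (median 0.10). Among the IFI and IFIT genes 6 of 9 lay above 0 (median 0.10), with IFI44, IFI44L and IFIT2 below. The nucleic acid sensors had 2 of 3 above 0 (median 0.02) and the ADP-ribosylation genes 1 of 2 (median 0.02). MX1 and MX2, SAMD9 and XAF1, and CXCL10 and LGALS3BP lay above 0. ISG15 itself had 339, 353 and 312 CPM at 0.5 µg/ml, against 343, 280.4 and 216 CPM in control libraries. Control library 1 lay within the treated range and control library 3 lay far below it. Its log2 fold change was 0.26 ± 0.13 (SE). EIF2AK2, the kinase PKR that halts translation on double-stranded RNA, was the member furthest below 0, at 257, 280.0 and 253 CPM with 0.5 µg/ml, against 268, 290.4 and 289 CPM in control libraries, a log2 fold change of -0.10 ± 0.05 (SE).

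At 1 µg/ml the members were near the control level. The same control libraries serve both doses, so these values are not independent of those above. edgeR called no member (percent called 0%), with 0 members at an unadjusted p under 0.05 against 2.36% of all genes, and DESeq2 called none and put 0 members under that p. The median log2 fold change of the members was -0.027 (quartiles -0.06 and 0.0038), beside -0.00016 over all genes, and 28 members lay below 0 against 50.1% of all genes. No member had groups that did not overlap, against 7.73% of all genes. The direction of this median changed with single libraries: it was 0.028 without 1 µg/ml library 3 and 0.0195 without control library 1. It was -0.12 without 1 µg/ml library 1 and -0.094 without control library 3. Members above 0 numbered 26 without 1 µg/ml library 3 and 23 without control library 1, against 12 with all libraries. They numbered 6 without 1 µg/ml library 1 and 6 without control library 3.

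The most abundant members showed the same closeness. LGALS3BP had 3656, 3672 and 3617 CPM at 1 µg/ml, against 3719, 3875 and 3669 CPM in control libraries, and 1 library at 1 µg/ml passed the lowest control library, by 3672 CPM against 3669 CPM. IFI27 had 1173, 1132 and 1162 CPM at 1 µg/ml, against 1228, 1003 and 1095 CPM in control libraries. IFITM1 had 523, 489 and 454 CPM at 1 µg/ml, against 489, 525 and 472 CPM in control libraries. For IFI27 and IFITM1 the 2 groups overlapped widely. The 95% interval lay within 1.5-fold for 39 of 40 members, CXCL10 again being the exception. The furthest below 0 was ISG20 at -0.18 ± 0.11 (SE) and the furthest above was CXCL10 at 0.16 on the log2 scale.

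Between the doses, the members lay lower at 1 µg/ml than at 0.5 µg/ml. edgeR called no member (percent called 0%) and DESeq2 called none, with a smallest adjusted p of a member of 0.846 in edgeR. At an unadjusted p under 0.05 there were 7 members in edgeR, against 5.68% of all genes, and 4 in DESeq2. All 7 were lower at 1 µg/ml, against 3.21% of all genes. The 7 were IRF7, IRF1, IRF9, USP18, TRIM22, MX2 and DTX3L. Below 0 lay 38 of 40 members, against 50.5% of all genes, and the median log2 fold change was -0.11 (quartiles -0.17 and -0.05) beside -0.0011 over all genes. Members varied together between libraries, as described below, so such counts of direction do not rest on independent genes in any comparison. Without 0.5 µg/ml library 2 the median was -0.062, with 2 members at an unadjusted p under 0.05. Members above 0 then numbered 10, against 2 with all libraries. Without 1 µg/ml library 3 the median was -0.058, with 0 members under that p. Leaving out 0.5 µg/ml library 1 gave 19 members under that p and leaving out 1 µg/ml library 1 gave 20. All-gene counts under that p moved as well, from 720 with all libraries. They ran from 443 without 1 µg/ml library 3 to 960 without 0.5 µg/ml library 1. The groups did not overlap for IFITM3, IRF9, CXCL10 and LGALS3BP, against 12.2% of all genes. All 4 were lower at 1 µg/ml, against 6.31% of all genes.

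All 4 transcription factors of the list lay below 0, with a median of -0.17. IRF7, which drives interferon-α genes, had 36.6, 30.8 and 26.3 CPM at 1 µg/ml, against 37.8, 37.1 and 36.3 CPM at 0.5 µg/ml. The 3 libraries at 1 µg/ml were spread out while those at 0.5 µg/ml were close together, and library 1 at 1 µg/ml passed the lowest library at 0.5 µg/ml. The log2 fold change was -0.25 ± 0.10 (SE), with an adjusted p of 0.846 in edgeR's quasi-likelihood test.

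IRF1, which binds response elements downstream of interferon-γ, had 59.5, 61.5 and 51.5 CPM at 1 µg/ml, against 59.5, 72.7 and 68.6 CPM at 0.5 µg/ml. Its log2 fold change was -0.22 ± 0.09 (SE). IRF9, the DNA-binding part of ISGF3, had 71.2, 71.9 and 70.5 CPM at 1 µg/ml, against 75.04, 80.2 and 78.5 CPM at 0.5 µg/ml. The groups of IRF9 did not overlap and those of IRF1 did. The log2 fold change of IRF9 was -0.13 ± 0.06 (SE). Its control libraries had 78.6, 69.0 and 70.3 CPM, 1 within the range at 0.5 µg/ml and 2 just below that at 1 µg/ml.

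USP18, which removes ISG15 from proteins and dampens type I receptor signalling, had 42.1, 32.1 and 34.0 CPM at 1 µg/ml, against 41.2, 44.8 and 38.3 CPM at 0.5 µg/ml. Library 1 at 1 µg/ml lay within the range at 0.5 µg/ml and the other two lay below it, with a log2 fold change of -0.20 ± 0.09 (SE). TRIM22, a ubiquitin ligase with antiviral activity, had 117, 116 and 110.3 CPM at 1 µg/ml, against 100.4, 155 and 146 CPM at 0.5 µg/ml. Library 1 at 0.5 µg/ml lay below every library at 1 µg/ml and the other two lay far above them. The log2 fold change was -0.23 ± 0.10 (SE) with an adjusted p of 0.846 in edgeR. Without 0.5 µg/ml library 1 it was -0.39 with an adjusted p of 0.00606, and without 0.5 µg/ml library 2 it was -0.11.

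**Figure D2:**
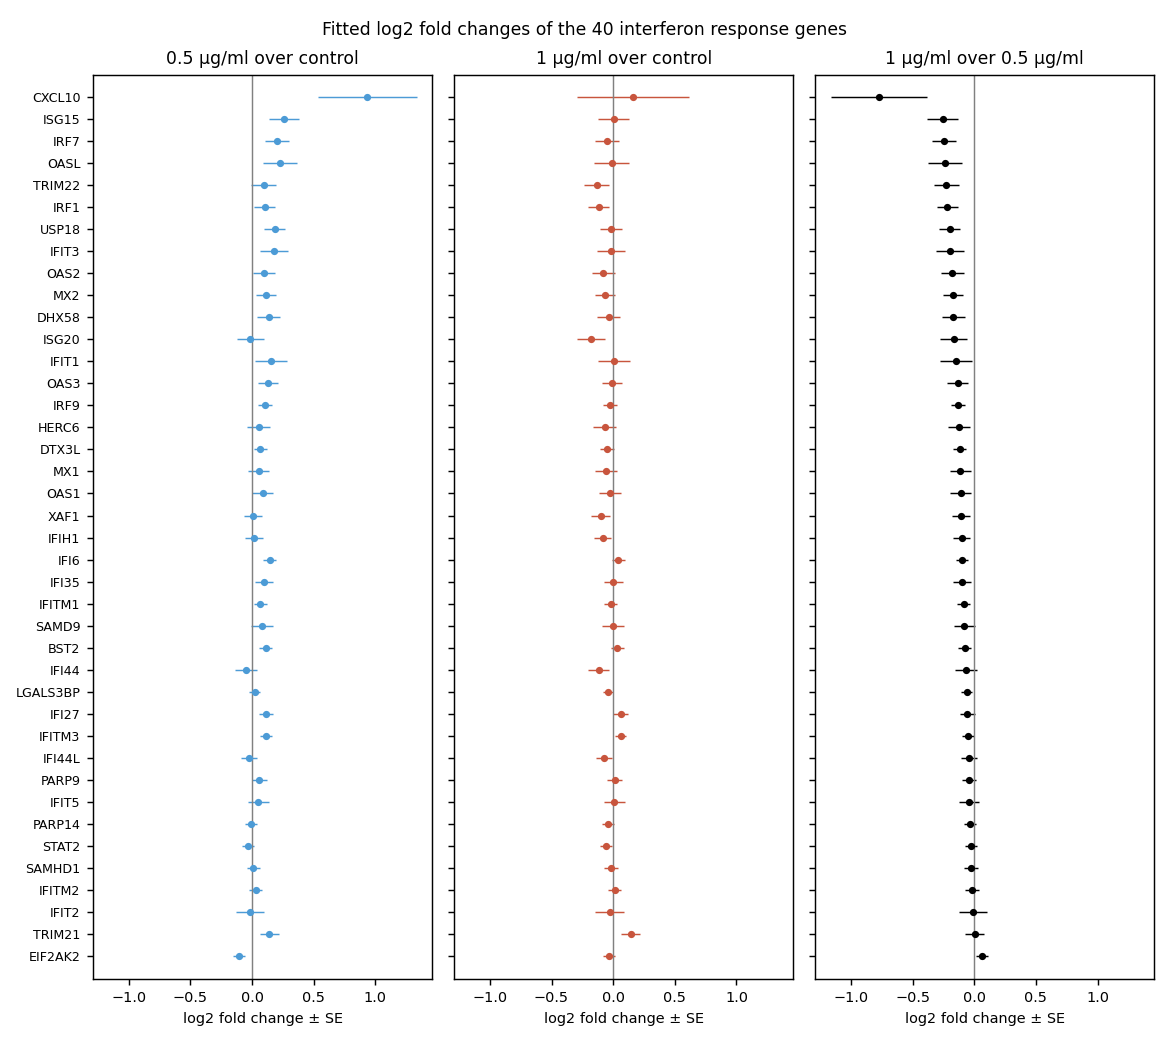
Fitted log2 fold change and SE (bars) of the 40 members in 3 panels: 0.5 µg/ml over control, 1 µg/ml over control, and 1 µg/ml over 0.5 µg/ml. Above 0 lie 33, 12 and 2 members, and CXCL10 is furthest from 0 in the first and last panels.

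**Figure D3:**
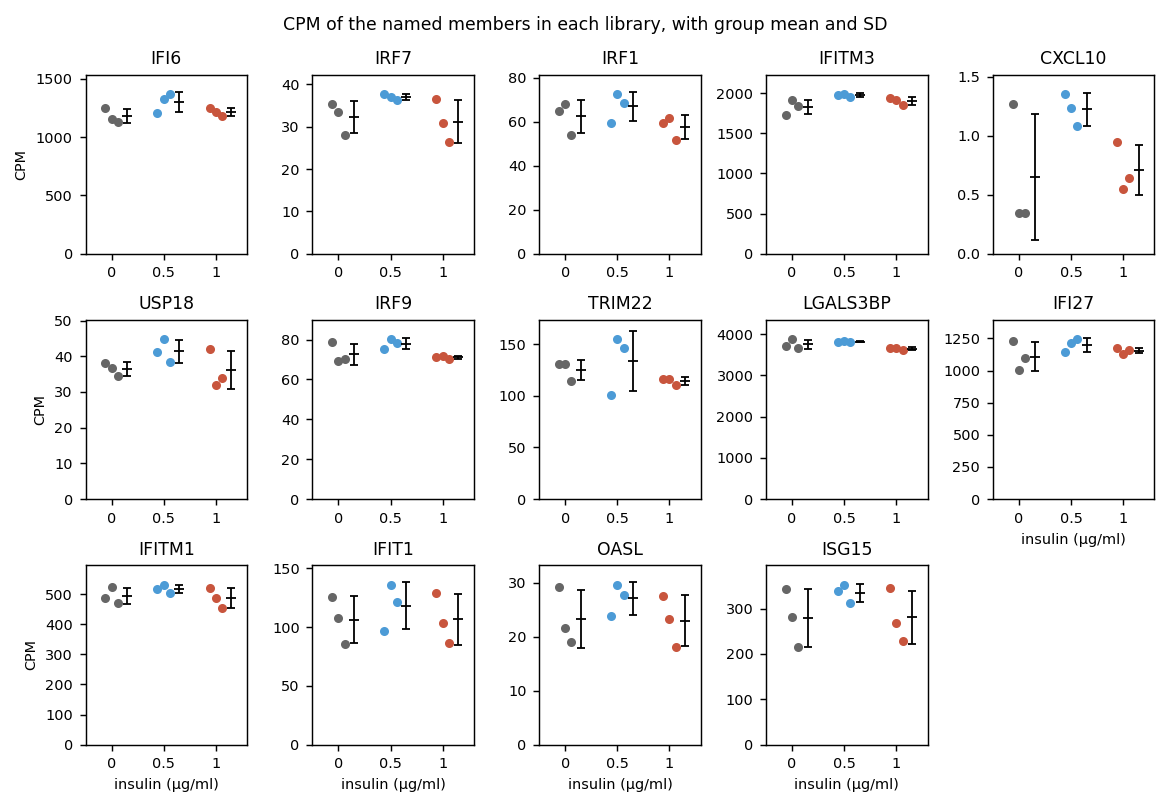
CPM in each library of the members described in full, at 0, 0.5 and 1 µg/ml insulin, with group mean and SD beside the points (n = 3). For most of these genes the points of the 3 groups overlap, and CXCL10 shows 1 high and 2 low control libraries.

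Group means put 0.5 µg/ml highest for 32 of the 40 members, control for 7 and 1 µg/ml for 1. Over all tested genes the highest mean was at 0.5 µg/ml for 38.4%, in control for 31.2% and at 1 µg/ml for 30.5%. The lowest mean was at 1 µg/ml for 27 members, in control for 12 and at 0.5 µg/ml for 1. Over all tested genes these shares were 31.1%, 32.9% and 35.9%. A test of all 3 groups together by edgeR called no member (percent called 0%) and put 2 at an unadjusted p under 0.05, against 4.48% of all genes. DESeq2 called no member either.

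The spread between libraries of a group was set beside that of the group means, which is made smaller by averaging over 3 libraries. The SD of log2 CPM within groups had a median of 0.138 over the members and 0.0958 over all tested genes, and for genes of at least 5 CPM the medians were 0.138 (39 members) and 0.0847. The SD of the 3 group means had a median of 0.0598 over the members and 0.0498 over all genes. It exceeded the within-group SD for 4 members (10.0%; IFI6, IFITM3, IRF9 and LGALS3BP), against 12.6% of all genes. Within-group SDs ran from 0.025 for LGALS3BP to 0.587 for CXCL10, with IFIT1 at 0.273, OASL at 0.272 and ISG15 at 0.264.

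**Figure D4:**
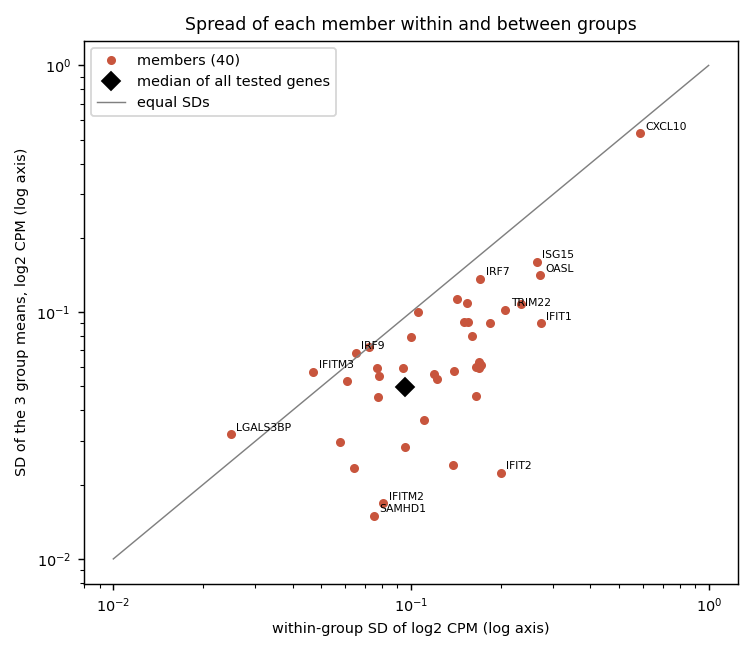
SD of log2 CPM within groups against SD of the 3 group means for each of the 40 members, both on log axes, with the median of all tested genes as a diamond (0.0958 within, 0.0498 between) and a line of equal SDs. Only 4 members lie above the line.

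The variation within groups was shared. Control library 3 was the lowest of its group for 34 members, 0.5 µg/ml library 1 for 30 and 1 µg/ml library 3 for 32. Over all tested genes, a library was the lowest of its group for 29.6% to 37.9%. The highest of its group was 0.5 µg/ml library 2 for 32 members, 1 µg/ml library 1 for 34 and control library 1 for 27. Over all tested genes these 3 libraries were the highest for 31.1%, 35.3% and 36.4%.

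Set against each gene's mean over the 9 libraries, the median member lay at 0.08, 0.02 and -0.12 on the log2 scale in control libraries, at -0.04, 0.15 and 0.08 at 0.5 µg/ml, and at 0.08, -0.06 and -0.14 at 1 µg/ml. Each group thus held at least 1 library in which most members were high and 1 in which most were low. Members above their own mean numbered 33, 27 and 2 of 40 in control libraries, 10, 39 and 35 at 0.5 µg/ml, and 32, 4 and 3 at 1 µg/ml.

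IFIT1, whose protein binds viral RNA lacking a methylated cap, shows this pattern most. It had 125, 108 and 85.6 CPM in control libraries, 96.8, 136 and 122 CPM at 0.5 µg/ml, and 129, 104 and 86.4 CPM at 1 µg/ml. OASL, a relative of the oligoadenylate synthetases that boosts RNA sensing, had 29.2, 21.5 and 18.996 CPM in control libraries, 23.8, 29.6 and 27.8 CPM at 0.5 µg/ml, and 27.6, 23.3 and 18.0 CPM at 1 µg/ml. In both genes control library 3 and 1 µg/ml library 3 were the lowest of the 9, and the ranges of the 3 groups overlapped.

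**Figure D5:**
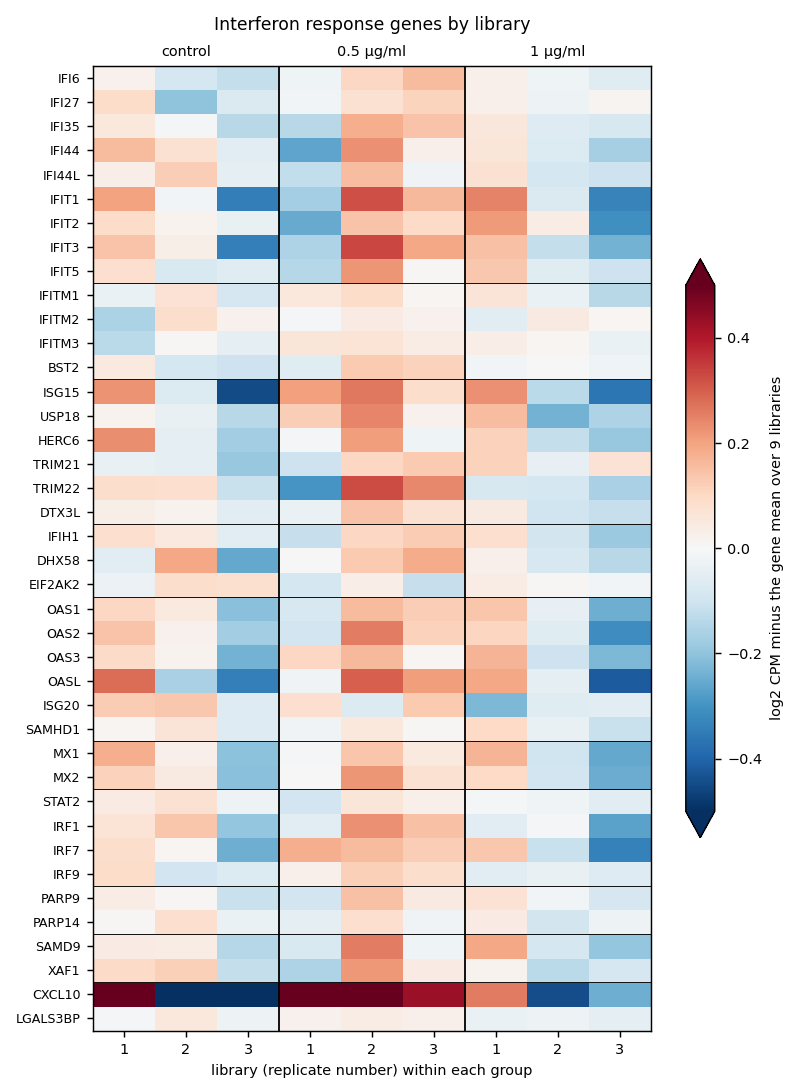
Log2 CPM of each of the 40 members (rows, ordered by role) in each of 9 libraries (columns, by group), as the difference from the gene's mean over all libraries; colours saturate at 0.5. Whole columns are shaded alike: control library 3 and 1 µg/ml library 3 are low, and 0.5 µg/ml library 2 is high (median member -0.12, -0.14 and 0.15).

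After the group means were removed, pairs of members had a median correlation of 0.63 over the 9 libraries (780 pairs), beside -5e-05 for pairs over all genes, and 63.1% of member pairs were above 0.5 against 14.4%. The points share library and depth. IFIT1 (median correlation with the other members 0.830), IFIT3 (0.828), OAS2 (0.807), OAS1 (0.803), MX2 (0.802) and SAMD9 (0.800) were the closest to the others. Those under 0.4 were IFITM2 (-0.212), ISG20 (-0.132), IFITM3 (0.105), EIF2AK2 (0.191), IFI27 (0.336), LGALS3BP (0.355) and CXCL10 (0.360). Of these, IFITM3, IFI27 and LGALS3BP are the 3 most abundant members. Members with the ISRE letters (23) and without them (8) had median within-group SDs of 0.105 and 0.131 and median log2 fold changes of 0.07 and 0.07 at 0.5 µg/ml over control. Their median fold changes were -0.0086 and -0.044 at 1 µg/ml over control, and -0.081 and -0.11 between the doses. For the 9 members not searched the medians were 0.11, -0.036 and -0.18 in these comparisons, in the same order. Whether the classes differ was not tested.

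A further 30 interferon-stimulated genes outside the 40 were counted from a separate list. TRIM25 among them was also counted with the sensing genes above. All were tested and none was called. At 0.5 µg/ml over control 20 had a positive fold change (median 0.04, log2 scale), against 52% of all genes. At 1 µg/ml over control 21 had a negative one (median -0.04), against 50.1% of all genes. Between the doses 22 had a negative one (median -0.05), against 50.5% of all genes. Their median deviation by library was 0.04, 0.03 and -0.06 in control, -0.07, 0.10 and 0.05 at 0.5 µg/ml, and 0.04, -0.03 and -0.08 at 1 µg/ml, with control library 3, 0.5 µg/ml library 1 and 1 µg/ml library 3 again the lowest of their groups.

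Of 9 listed negative regulators of cytokine signalling 8 were tested and none was called. At 0.5 µg/ml over control 2 of the 8, SOCS1 and SOCS3, lay above 0, against 52% of all genes, and 6 lay below (median -0.03, log2 scale). Between the doses 3 lay below 0, SOCS1 and SOCS3 among them, against 50.5% of all genes, and 5 lay above (median 0.02). SOCS3, an inhibitor of JAK kinases, had 13.6, 11.6 and 15.8 CPM at 1 µg/ml, against 19.3, 16.5 and 18.8 CPM at 0.5 µg/ml, with no overlap. Its log2 fold change was -0.41 ± 0.10 (SE), with an adjusted p of 0.846 in edgeR's quasi-likelihood test. SOCS1, a relative that also blocks JAK kinases, had 5.98, 4.93 and 5.81 CPM at 0.5 µg/ml, against 4.28, 3.41 and 4.24 CPM in control libraries, also with no overlap. Its log2 fold change was 0.49 ± 0.16 (SE), with an adjusted p of 0.765 in edgeR. Groups did not overlap for 12.2% of all genes between the doses and for 10.7% at 0.5 µg/ml over control.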

How the data were processed

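RNA was extracted with TRIzol from KGN cells and made into libraries with a VAHTS kit, per the labels' protocols. The authors deposited raw read counts and FPKM per gene symbol. The submitters' processing notes name Trimmomatic, HTSeq, DESeq and hg38, while the tools' roles and versions, the aligner, the annotation and the strand setting were not given in the sources used here. Deposited FPKM are the counts rescaled by library and gene length, and were used only for levels between genes. The deposited counts were filtered with filterByExpr in edgeR 4.0.16 (minimum count 10, minimum total 15), which kept 12665 genes, all 40 members included, and removed 3318. They were scaled by TMM and fitted in 1 model over 9 libraries with the quasi-likelihood F-test (R 4.3.3), with Benjamini-Hochberg adjustment over all genes tested, and called at an adjusted p under 0.05. All p-values are two-sided. SE was the size of the log2 fold change over the root of F, and log2 CPM used a prior count of 2. DESeq2 1.42.0 without the count filter, the older quasi-likelihood method (chosen after seeing the data), other scalings and filters, a replicate block and leaving out each library were the alternatives. The scripts were tested on simulated data. Within groups, pairs of libraries differed beyond sampling noise (chi-square over its degrees of freedom 2.20 to 8.48), so none was a duplicate. Members described in full were the 8 of smallest unadjusted p over the 3 comparisons, the 5 of highest FPKM and the 3 of highest within-group SD of at least 1 CPM. EIF2AK2, SOCS1 and SOCS3 were added after their values were seen. The members and gene lists were chosen with earlier results of these data known. Positions are from GENCODE 29 and promoter windows from RefSeq. Intervals cover counting and replicate error in this model only.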

Additional observations from a re-analysis of the deposited data

How the results depend on the processing

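The 8 members of smallest p were refitted without each of 9 libraries and under 7 other alternatives. Of these 128 values 127 kept their direction and their side of the threshold, none reversed, and TRIM22 between the doses passed it without 0.5 µg/ml library 1. This count says little about stability. The 8 were picked for small p in these data, yet their adjusted p was 0.765 or more in edgeR, far from the threshold. Leaving out a library outside the comparison hardly moved the fold change, which for IFI6 stayed at 0.14 without any 1 µg/ml library in turn. The members' median fold changes kept their sign except at 1 µg/ml over control, where they ran from -0.12 to 0.028 as libraries were left out. At 0.5 µg/ml over control they ran from 0.024 to 0.13, and between the doses from -0.15 to -0.058. With a replicate block the genes called were 2 at 0.5 µg/ml over control and 5 in the test of 3 groups, which DESeq2 without the count filter put at 1. Members at an unadjusted p under 0.05 were 9, 0 and 11 with the block, against 5, 0 and 7 without it. Over all genes the counts under that p rose as well, to 975, 354 and 897 with the block from 776, 299 and 720 without it. Deviations of same-numbered libraries correlated at -0.0117 to 0.161 over 9 pairs, and of other-numbered ones at -0.111 to 0.0572 over 18 pairs. Between control and 1 µg/ml the same-numbered pairs had 0.0818, 0.0373 and 0.161, and the other-numbered pairs 0.0286 at most. Whether the replicate numbers pair the libraries is not in the labels and was not tested. Leaving out a library in turn gave 0 to 1 genes called at 0.5 µg/ml over control, 0 to 2 between the doses and 0 to 2 over 3 groups, with 0 to 1 members called between the doses and over 3 groups. DESeq2 without the count filter (15981 genes) put 173 genes at an unadjusted p under 0.05 at 1 µg/ml over control, against 299 in edgeR with it (12665 genes). The 3 libraries of a group limit these comparisons, and CXCL10 rests on 7 to 27 counts a library.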
